A study of Drosophila melanogaster with 26 samples.

Results

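NSL3 RNAi ovaries were compared directly with NSL2 RNAi ovaries, 2 germline knockdowns of subunits of the same chromatin complex. The comparison holds 6 of the 12 separate ovarian RNA-seq library columns in the deposited tables, 3 NSL3 RNAi and 3 NSL2 RNAi libraries, taken by their group labels. The 3 *white* RNAi libraries are given beside them as the background level. The study names virgin *white* RNAi females as the control of NSL3 RNAi and nonvirgin ones as that of NSL2 RNAi, but the *white* RNAi columns of both tables hold the same reads, under the name of the sample not labelled virgin. The sample labelled virgin was not analysed here, so the *white* RNAi level beside NSL3 RNAi may not come from the control that the study names for it. All flies are *Drosophila melanogaster* F1 females in which *nanos*-GAL4 drove a hairpin in germline cells only, so the somatic cells of the ovary carried no active hairpin. The *nanos*-GAL4 line in the study's stock list also carries a UAS-*Dcr-2* transgene in a *w* mutant background. The NSL3 hairpin line is Vienna stock 108002 in the sample record, whereas the methods name another Vienna line in a *w* mutant background. The NSL2 line is Bloomington stock 58162, a TRiP hairpin at attP40 in a *y v* background. The *white* line is Bloomington stock 35573, a TRiP hairpin at attP2 in a *y sc v* background. The F1 females received yeast for 3 to 5 days before dissection, and the 3 libraries of a group come from separate crosses. NSL3 RNAi ovaries were described as atrophied and NSL2 RNAi ovaries as morphologically normal, so the 2 groups differ in hairpin, stock, knockdown strength and tissue shape together, and these cannot be told apart here.

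The NSL (nonspecific lethal) complex brings the histone acetyltransferase MOF to the promoters of widely expressed genes. In the germline, PIWI-interacting RNAs (piRNAs) made from genomic clusters silence transposons, and factors such as Rhino and Moonshiner permit transcription of clusters bound by heterochromatin. *HeT-A*, *TAHRE* and *TART* are the retrotransposons that form *Drosophila* telomeres, and their transcripts rise in ovaries when germline piRNAs are lost. Nurse cells supply most of the maternal mRNA, and the somatic follicle cells around them secrete the eggshell late in oogenesis.

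Values are scaled reads, that is whole reads per feature divided by 1 size factor per library, and a feature was tested when its mean over the 6 libraries was at least 10. A change was called at an adjusted p below 0.05 and an absolute log2 fold change above 1, NSL3 RNAi minus NSL2 RNAi, on log2(scaled reads + 1). Depth ran between 12482452 and 15127028 reads in NSL3 RNAi, between 14868717 and 20911687 in NSL2 RNAi and between 20820820 and 23021900 in *white* RNAi. Of 8938 annotated genes tested, 2384 were higher (26.7%) and 824 lower (9.22%) in NSL3 RNAi. These 2 shares are the background for every count of list members below. NSL3 RNAi replicate 2 stood apart from the other NSL3 RNAi libraries and lay nearer to NSL2 RNAi, with Spearman correlations over genes of 0.88 with each NSL2 RNAi library, against 0.75 to 0.80 for NSL3 RNAi replicates 1 and 3. Without it 2521 genes were higher and 1309 lower, with 812 of the 824 lower genes among them, and without NSL3 RNAi replicate 1 the lower genes numbered 491. Scaling by total reads shifted the median over genes by -0.17, which gave 2234 higher and 1305 lower (63.1% of calls higher, against 74.3% in the fit reported). Scaling on ribosomal protein genes shifted it by 0.14, and scaling on nurse cell and oocyte genes by 1.35, which gave 5457 higher and 56 lower (99.0% higher). With no fold minimum 3063 genes were higher and 3186 lower. The median log2 fold change over all genes was -0.07, and 2234 genes were higher and 50 lower under each of the 6 scalings run.

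The targeted genes were measured first. *Rcd1*, which encodes NSL3, had 2283, 2684 and 2368 scaled reads in NSL3 RNAi, against 3749.9, 3049.6 and 3757 in NSL2 RNAi and 4218 to 4573 in *white* RNAi. It was lower in NSL3 RNAi with no overlap between the groups (log2 fold change -0.52, SE 0.12, limma adjusted p = 0.00793), a difference below the fold required for a call. *dgt1*, which encodes NSL2, had 656, 947 and 661 scaled reads in NSL3 RNAi, against 843, 991 and 968 in NSL2 RNAi and 1259 to 1450.1 in *white* RNAi, and the 2 knockdowns overlapped (log2 fold change -0.33, SE 0.17, limma adjusted p = 0.124). Both targeted genes thus lay below *white* RNAi in all 6 knockdown libraries on the scale used. Per 1000 reads of nurse cell and oocyte genes, *Rcd1* stood at 30.8, 13.6 and 20.6 in NSL3 RNAi, against 12.6, 11.2 and 12.7 in NSL2 RNAi and 12.1 to 12.8 in *white* RNAi. On this second scale *Rcd1* was higher in each NSL3 RNAi library than in any other library. There *dgt1* stood at 8.86, 4.81 and 5.74 in NSL3 RNAi, against 2.83, 3.66 and 3.27 in NSL2 RNAi and 3.61 to 4.06 in *white* RNAi. It was thus above *white* RNAi in each NSL3 RNAi library, while NSL2 RNAi and *white* RNAi overlapped. Among the 7 genes of the complex 0 were called by limma, edgeR or DESeq2. By limma 3 of them were lower at an unadjusted p under 0.05 and as many at an adjusted p under 0.05, namely *Rcd1*, *wds* and *mof*. *mof*, the acetyltransferase, had 579, 943 and 642 scaled reads in NSL3 RNAi, against 1136, 1098 and 1304 in NSL2 RNAi (log2 fold change -0.74, SE 0.19, limma adjusted p = 0.0117). *wds*, a WD-repeat subunit, had 549.9, 831 and 668 scaled reads in NSL3 RNAi, against 959.5, 989 and 1032 in NSL2 RNAi (log2 fold change -0.56, SE 0.16, limma adjusted p = 0.0175). *wah* (NSL1), *MBD-R2* and *Rcd5* had log2 fold changes of -0.28, -0.10 and -0.28 with overlapping groups, and all 7 genes turned to positive values under scaling on nurse cell genes.

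Maternal germline transcripts were lower in NSL3 RNAi. The 29 listed genes of nurse cells and oocyte, 28 of them tested, summed to 74032, 196852 and 115149 scaled reads in NSL3 RNAi, against 297532, 271170.1 and 296178 in NSL2 RNAi, and the *white* RNAi libraries held 348504 to 357274. All NSL3 RNAi libraries lay below all others, and they spanned 2.66-fold among themselves, against 1.10-fold in NSL2 RNAi. In whole ovaries, fewer cells of a type and less RNA per cell cannot be told apart. By limma 20 of the 28 genes were lower and 1 was higher (median -1.30), against 9.22% and 26.7% over all genes. The lower count was 11 without NSL3 RNAi replicate 1. *pgc*, which represses transcription in primordial germ cells, had 1352, 3564 and 1588 scaled reads in NSL3 RNAi, against 7576, 6949 and 7804 in NSL2 RNAi (log2 fold change -1.91, SE 0.33, limma adjusted p = 0.00238). The maternal tubulin *alphaTub67C* had 1732, 5755 and 2765 scaled reads in NSL3 RNAi, against 10228, 9961 and 11383 in NSL2 RNAi (log2 fold change -1.80, SE 0.38, limma adjusted p = 0.00532). *plu*, a regulator of the early embryonic cell cycle, had 151, 375 and 165 scaled reads in NSL3 RNAi, against 669.7, 654 and 770.2 in NSL2 RNAi (log2 fold change -1.72, SE 0.34, limma adjusted p = 0.00377). In each of these 3 genes NSL3 RNAi replicate 2 was the highest of its group and still lay below every NSL2 RNAi library. *pum*, a translational repressor and the most abundant member that was not called, had overlapping groups (log2 fold change -0.06, SE 0.13, limma adjusted p = 0.693). The 1 higher member was *grk*, the TGF-alpha-like ligand that patterns the egg, named after its values were seen, with 481, 358 and 545 scaled reads in NSL3 RNAi, against 199, 198 and 219 in NSL2 RNAi, a call that was lost under total read scaling.

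**Figure D1:**
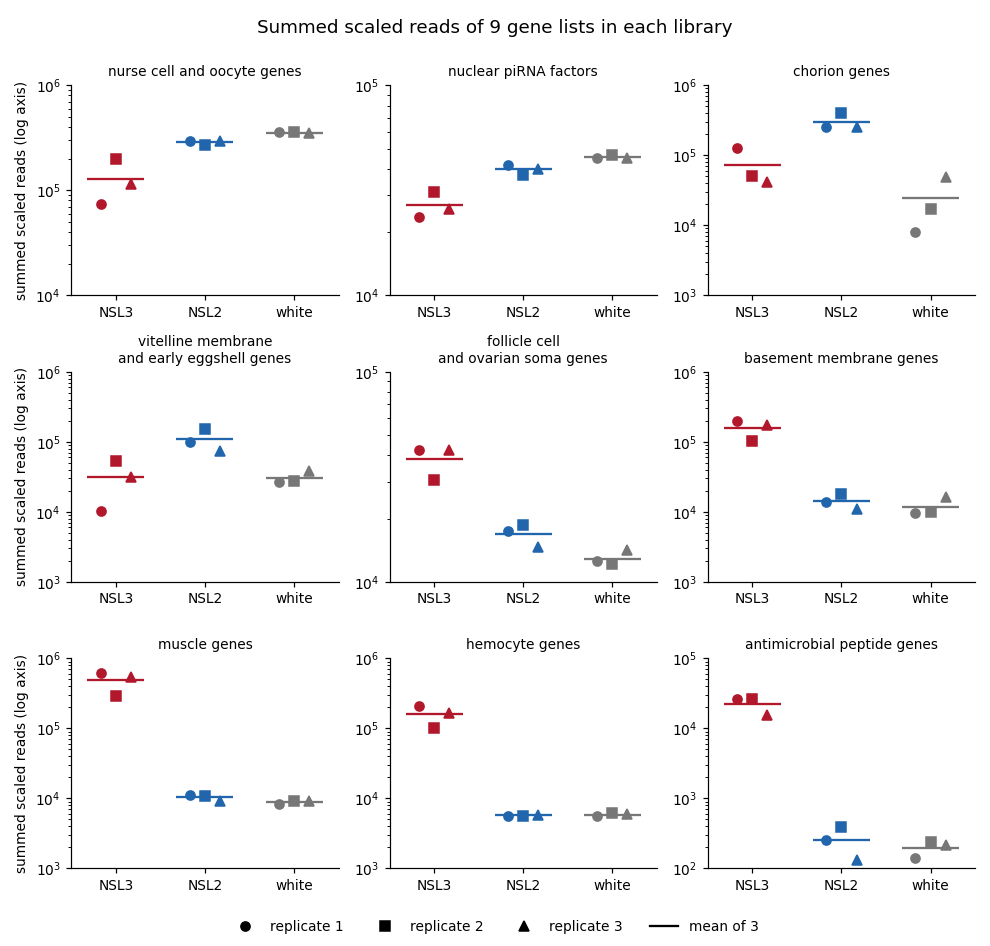
Summed scaled reads (log axis) of 9 gene lists in each library of NSL3 RNAi (red), NSL2 RNAi (blue) and *white* RNAi (grey), with a line at the mean of 3. Nurse cell and nuclear piRNA factor sums lie below NSL2 RNAi in all NSL3 RNAi libraries, and muscle, hemocyte, basement membrane and antimicrobial peptide sums lie above it.

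The piRNA pathway followed the same direction. Of 17 nuclear factors, which license cluster transcription or silence targets in the nucleus, 5 were lower and 0 higher (median -0.75). Over all genes 9.22% were lower and 26.7% higher. Of the nuclear factors 0 were higher at an unadjusted p under 0.05 by limma and 0 were called higher by edgeR or DESeq2. The lower count was 8 without NSL3 RNAi replicate 2. *CG12721* (*moonshiner*), which starts cluster transcription, had 118, 268 and 159 scaled reads in NSL3 RNAi, against 564, 597 and 618 in NSL2 RNAi (log2 fold change -1.78, SE 0.29, limma adjusted p = 0.00167). *CG13741* (*bootlegger*), which carries cluster transcripts out of the nucleus, had 549.9, 1526 and 884 scaled reads in NSL3 RNAi, against 2662, 2794 and 2717 in NSL2 RNAi (log2 fold change -1.59, SE 0.33, limma adjusted p = 0.00459). *mael*, a silencing factor downstream of Piwi, had 483, 1001 and 617 scaled reads in NSL3 RNAi, against 1657, 1747 and 1878 in NSL2 RNAi (log2 fold change -1.39, SE 0.25, limma adjusted p = 0.00269). The groups did not overlap for these 3 genes, and in all of them NSL3 RNAi replicate 1 was lowest. Of 21 cytoplasmic factors, 11 were lower and 1 higher (median -1.03), against the same shares over all genes, with 5 lower without NSL3 RNAi replicate 1. *tej*, a nuage Tudor protein, had 311, 663 and 383 scaled reads in NSL3 RNAi, against 1351, 1226 and 1408 in NSL2 RNAi (log2 fold change -1.62, SE 0.26, limma adjusted p = 0.00179). *BoYb*, a Tudor protein of the same germline granules, and *zuc*, the nuclease that cuts piRNA precursors, had log2 fold changes of -1.77 and -1.44, with no overlap. Under scaling on nurse cell genes the medians of both lists became positive (0.55 and 0.27).

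The PIWI-clade genes themselves, chosen after their values were seen, did not all pass the fold. *aub* had 855, 1573 and 1397 scaled reads in NSL3 RNAi, against 3020.4, 3125 and 3016 in NSL2 RNAi (log2 fold change -1.31, SE 0.22, limma adjusted p = 0.00197). *AGO3*, its partner in piRNA amplification, had 644, 1302 and 799.6 scaled reads in NSL3 RNAi, against 2134, 1753 and 2114 in NSL2 RNAi (log2 fold change -1.19, SE 0.25, limma adjusted p = 0.00498), a call lost without NSL3 RNAi replicate 1. *piwi*, which is expressed in germline and soma, had 2797, 3657 and 3209.6 scaled reads in NSL3 RNAi, against 4752, 4593 and 4839 in NSL2 RNAi, a log2 fold change of -0.56 that did not pass the fold. Per 1000 reads of nurse cell and oocyte genes *piwi* was at 37.8, 18.6 and 27.9 in NSL3 RNAi, against 15.97, 16.9 and 16.3 in NSL2 RNAi. *vas*, a germline helicase chosen in the same way, was at 17.4, 20.2 and 19.4 in NSL3 RNAi, against 17.7, 19.6 and 16.99 in NSL2 RNAi with overlapping groups. In the fit reported *vas* was called lower (log2 fold change -1.21), a call lost without NSL3 RNAi replicate 1 or 3. Per 1000 nurse cell and oocyte reads *aub* overlapped too, at 11.5, 7.99 and 12.1 in NSL3 RNAi against 10.2, 11.5 and 10.2 in NSL2 RNAi. The exception among the cytoplasmic factors was *tud*, the Tudor scaffold protein, named after its values were seen, with 28160.4, 17899 and 25941 scaled reads in NSL3 RNAi, against 12804, 11782 and 10676 in NSL2 RNAi and a log2 fold change of 1.01. This call, just past the fold, was lost without NSL3 RNAi replicate 1 or 3, without NSL2 RNAi replicate 2 or 3, and under TMM, total read and all-feature median of ratios scaling. The 8 genes for siRNA and miRNA factors gave 0 calls in limma, edgeR and DESeq2, while 3 were higher and 4 lower at an unadjusted p under 0.05 by limma. *Dcr-2*, also a transgene of the driver line, was level between the 2 knockdowns (log2 fold change 0.01). It had 11298, 7659 and 10030 scaled reads in NSL3 RNAi, against 11509, 7698 and 9576 in NSL2 RNAi and 4370 to 4888 in *white* RNAi. The share of the transgene in these reads was not tested.

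Other germline lists were mixed. The telomere cap genes *HipHop* and *cav*, whose products bind chromosome ends, were the 2 lower of 6 tested, and 0 were higher by limma, also at an unadjusted p under 0.05, by edgeR and by DESeq2. *HipHop* had 638, 1437 and 667 scaled reads in NSL3 RNAi, against 2153, 2007 and 2587 in NSL2 RNAi (log2 fold change -1.40, SE 0.31, limma adjusted p = 0.00575). *cav* had 430.5, 821 and 508 scaled reads in NSL3 RNAi, against 1344, 1116 and 1242 in NSL2 RNAi (log2 fold change -1.12, SE 0.24, limma adjusted p = 0.00494). Both genes had separate groups, with NSL3 RNAi replicate 2 nearest to NSL2 RNAi. The call of *cav* was lost without NSL3 RNAi replicate 1 and under scaling on ribosomal protein genes, and its sign turned under scaling on nurse cell genes. Of 15 meiotic genes, 6 were lower and 2 higher (median -0.86, 0.44 under scaling on nurse cell genes), against 9.22% lower and 26.7% higher over all genes. *c(2)M*, a synaptonemal complex protein, had 106, 238 and 163 scaled reads in NSL3 RNAi, against 589, 513 and 595 in NSL2 RNAi (log2 fold change -1.81, SE 0.28, limma adjusted p = 0.00155). *ord* and *cona*, also of meiotic chromosome cores, went the other way, with log2 fold changes of 2.96 and 2.32. *ord* had 55.99, 13.5 and 65.02 scaled reads in NSL3 RNAi, against 2.03, 5.41 and 4.99 in NSL2 RNAi, and its NSL3 RNAi replicate 2 was the lowest of its group.

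Of 16 early germline genes, 3 were higher and 5 lower, against 26.7% higher and 9.22% lower over all genes. *A2bp1*, an RNA-binding protein of dividing cysts, had 1689.6, 1227 and 1796 scaled reads in NSL3 RNAi, against 411, 427 and 444 in NSL2 RNAi (log2 fold change 1.86, SE 0.16, limma adjusted p = 7.78e-05). *bgcn*, the partner of the differentiation factor Bam, had 94.6, 22.9 and 55.3 scaled reads in NSL3 RNAi, against 7.09, 14.7 and 12.1 in NSL2 RNAi (log2 fold change 2.09, SE 0.55, limma adjusted p = 0.0121). *shf*, a secreted Hedgehog cofactor, was the third (log2 fold change 2.81, SE 0.49, limma adjusted p = 0.00249), and in these 3 genes all NSL3 RNAi libraries lay above all NSL2 RNAi libraries. Cell cycle genes gave 5 lower of 13 and 0 higher (also 0 at an unadjusted p under 0.05, by edgeR and by DESeq2), with a median of -0.99 that became 0.32 under scaling on nurse cell genes. *twe*, the meiotic Cdc25 phosphatase, had 632, 1695 and 782 scaled reads in NSL3 RNAi, against 2824, 2361 and 3067 in NSL2 RNAi (log2 fold change -1.54, SE 0.34, limma adjusted p = 0.00607), and *CycA* and *CycB* had log2 fold changes of -1.41 and -1.33, the second call being lost without NSL3 RNAi replicate 1 or 3. The lower count was 2 without NSL3 RNAi replicate 3 and 8 without NSL3 RNAi replicate 2. Of 15 DNA damage response genes 6 were lower, with *RnrS* and *RnrL*, the subunits of ribonucleotide reductase, at -1.44 and -1.41, and 1 was higher. That gene, *Xrp1*, encodes a transcription factor induced by irradiation and had 4139, 2666 and 4825 scaled reads in NSL3 RNAi, against 471, 534 and 377 in NSL2 RNAi (log2 fold change 3.04, SE 0.24, limma adjusted p = 4.39e-05).

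The telomeric retrotransposons did not separate the knockdowns. *HeT-A* had 817, 21128 and 10453 scaled reads in NSL3 RNAi, against 12917, 6357 and 5994 in NSL2 RNAi and 39.3 to 50.2 in *white* RNAi. NSL3 RNAi replicate 2 was above every NSL2 RNAi library, replicate 3 lay between them and replicate 1 below them, and all 6 knockdown libraries were above *white* RNAi (log2 fold change -0.48, SE 1.09, limma adjusted p = 0.705). *TAHRE* had 80.9, 2258 and 1099.8 scaled reads in NSL3 RNAi, against 1241, 689.7 and 556 in NSL2 RNAi and 7.93 to 9.12 in *white* RNAi (log2 fold change -0.41, SE 1.11, limma adjusted p = 0.752). *TART* had 42.3, 289 and 142 scaled reads in NSL3 RNAi, against 309, 237 and 123 in NSL2 RNAi and 7.27 to 13.3 in *white* RNAi (log2 fold change -0.78, SE 0.68, limma adjusted p = 0.325). The order of the NSL3 RNAi libraries was the same in all 3 families and in the nurse cell and oocyte sum, with replicate 1 lowest and replicate 2 highest, which is a description of 3 libraries. By limma, edgeR and DESeq2 0 of the 3 families were called, and 0 passed an unadjusted p of 0.05 by limma. Without NSL3 RNAi replicate 2 *TART* was called lower (log2 fold change -1.42, limma adjusted p = 0.046). Without replicate 1 *HeT-A* had a log2 fold change of 0.93, without replicate 2 -1.44 and without replicate 3 -0.91. Scaling on nurse cell genes turned the 3 values positive (0.82, 0.89 and 0.51). Per 1000 reads of those genes *HeT-A* was at 11.04, 107 and 90.8 in NSL3 RNAi, against 43.4, 23.4 and 20.2 in NSL2 RNAi. Among 61 single *HeT-A* insertions tested 1 was higher and 2 were lower.

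**Figure D2:**
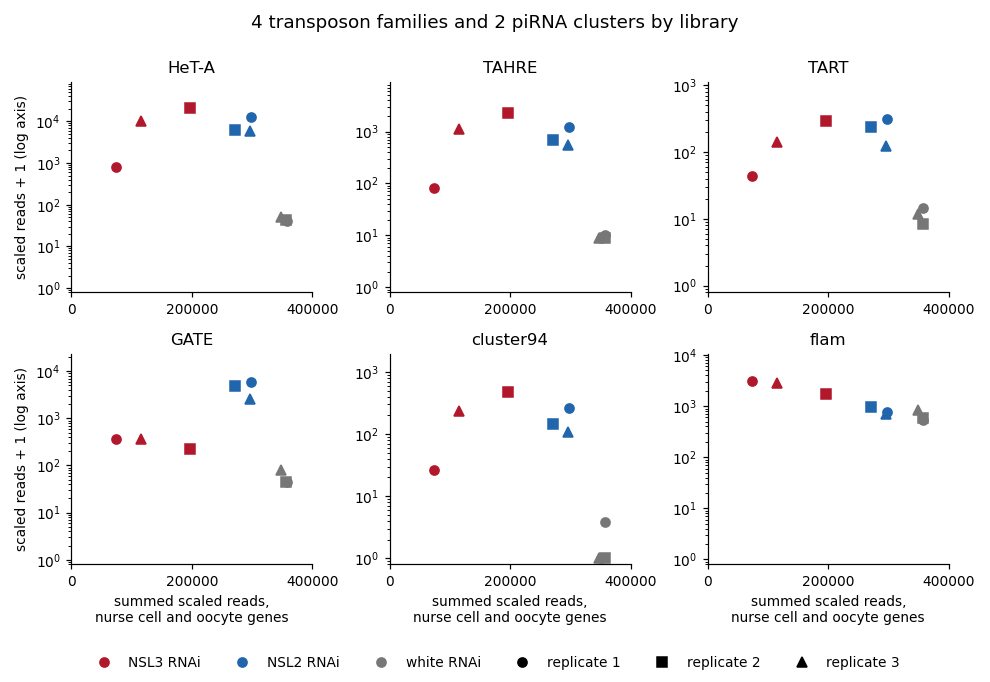
Scaled reads + 1 (log axis) of 4 transposon families and 2 piRNA clusters against the summed scaled reads of nurse cell and oocyte genes in each library, with colour for the group and shape for the replicate number. In NSL3 RNAi (red) *HeT-A*, *TAHRE*, *TART* and cluster94 are lowest in the library with the lowest nurse cell sum, and *GATE* lies below NSL2 RNAi in all 3 libraries.

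Other transposon families moved in both directions. Of 110 families tested, 33 were higher (30%) and 17 lower (15.5%) in NSL3 RNAi, against 26.7% and 9.22% over all genes, with a median log2 fold change of 0.52. Scaling on nurse cell genes gave 61 higher and 8 lower (88.4% of calls higher, against 66% in the fit reported). In 93 of the 110 families all NSL3 RNAi and NSL2 RNAi libraries lay above all *white* RNAi libraries. Of the 17 families called lower, 15 still had every NSL3 RNAi library above every *white* RNAi library. The matching shares over genes were not counted, so neither count shows an excess of families over genes. By class, LTR retrotransposons, which copy through long terminal repeats, gave 11 higher and 14 lower of 57. Non-LTR (LINE) elements gave 10 higher and 2 lower of 33, and DNA transposons 12 higher and 1 lower of 19. The median was 0.18 for LTR, 0.71 for LINE and 1.23 for DNA elements.

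The families with the lowest fold changes were all LTR retrotransposons. *GATE* had 361, 220.5 and 369 scaled reads in NSL3 RNAi, against 5936, 4751 and 2636 in NSL2 RNAi and 42.8 to 77.8 in *white* RNAi (log2 fold change -3.76, SE 0.33, limma adjusted p = 7.6e-05). *Stalker* had 3.73, 4.16 and 4.15 scaled reads in NSL3 RNAi, against 100.3, 89.7 and 55.6 in NSL2 RNAi (log2 fold change -4.00, SE 0.35, limma adjusted p = 7.95e-05). Neither had overlapping groups, and the 3 *Stalker* values in NSL3 RNAi lay just above the *white* RNAi libraries (0 to 2.91). *diver*, *Dm88*, *3S18* and *Tabor* had log2 fold changes of -3.19, -2.93, -2.92 and -2.91, without overlap. *3S18*, for example, had 134, 48.9 and 142 scaled reads in NSL3 RNAi, against 887, 792 and 595 in NSL2 RNAi and 4.62 to 7.998 in *white* RNAi. *blood* had 114, 142 and 89.9 scaled reads in NSL3 RNAi, against 745, 846 and 527 in NSL2 RNAi (log2 fold change -2.60, SE 0.25, limma adjusted p = 0.000115). *HMS-Beagle* had 22.4, 6.24 and 17.98 scaled reads in NSL3 RNAi, against 72.95, 123 and 83.4 in NSL2 RNAi (log2 fold change -2.64, SE 0.48, limma adjusted p = 0.00301). Both families, which the study named among those it followed, had separate groups, and the call of *HMS-Beagle* was lost under scaling on nurse cell genes. *Stalker*, *GATE*, *diver*, *Dm88*, *3S18*, *Tabor*, *gypsy12* and *blood* were the 8 families called lower under each of the 6 scalings. Single insertions showed the same sign where enough of them could be tested, with 49 of 53 *GATE* insertions, 23 of 28 *gypsy12* insertions and 7 of 7 *blood* insertions lower and 0 higher. Insertions of 1 family share sequence, so reads may have been split between copies, and *gypsy12* was named after its values were seen.

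The families with the highest fold changes came from several classes. *Juan*, a LINE element, had 62.2, 40.6 and 102 scaled reads in NSL3 RNAi, against 11.1, 6.19 and 17.1 in NSL2 RNAi and 0 to 0.727 in *white* RNAi (log2 fold change 2.47, SE 0.48, limma adjusted p = 0.00372). *transib3*, a DNA transposon, had 643, 279.7 and 517 scaled reads in NSL3 RNAi, against 81.1, 118 and 71.3 in NSL2 RNAi (log2 fold change 2.35, SE 0.34, limma adjusted p = 0.00105). *mdg1*, an LTR element that the study named, had 358, 142 and 266 scaled reads in NSL3 RNAi, against 55.7, 60.3 and 46.4 in NSL2 RNAi (log2 fold change 2.13, SE 0.35, limma adjusted p = 0.0018). In all 3 families the groups were separate, and NSL3 RNAi replicate 2, which held the most nurse cell reads, was the lowest of its group. *Bari2* and *Doc* had log2 fold changes of 2.25 and 1.86, and a further LTR family among the 6 highest had 2.31. Of the other families that the study named, *Burdock* overlapped between the groups (log2 fold change 0.40, SE 0.25, limma adjusted p = 0.183). *McClintock* did so as well (log2 fold change -0.93, SE 0.46, limma adjusted p = 0.107). By the lists of tissue activity, 2 of 10 gypsy-group families of the ovarian soma were higher and 2 lower, and 5 of 25 families active in the germline were higher and 8 lower (medians 0.46 and -0.41, the second 0.89 under scaling on nurse cell genes). Over all families 30% were higher and 15.5% lower. The repeats named suste and mst40 in the tables were both higher (log2 fold changes 1.30 and 1.14). The call of mst40 was lost without NSL3 RNAi replicate 1 or 3, without any 1 of the NSL2 RNAi libraries and under total read scaling.

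**Figure D3:**
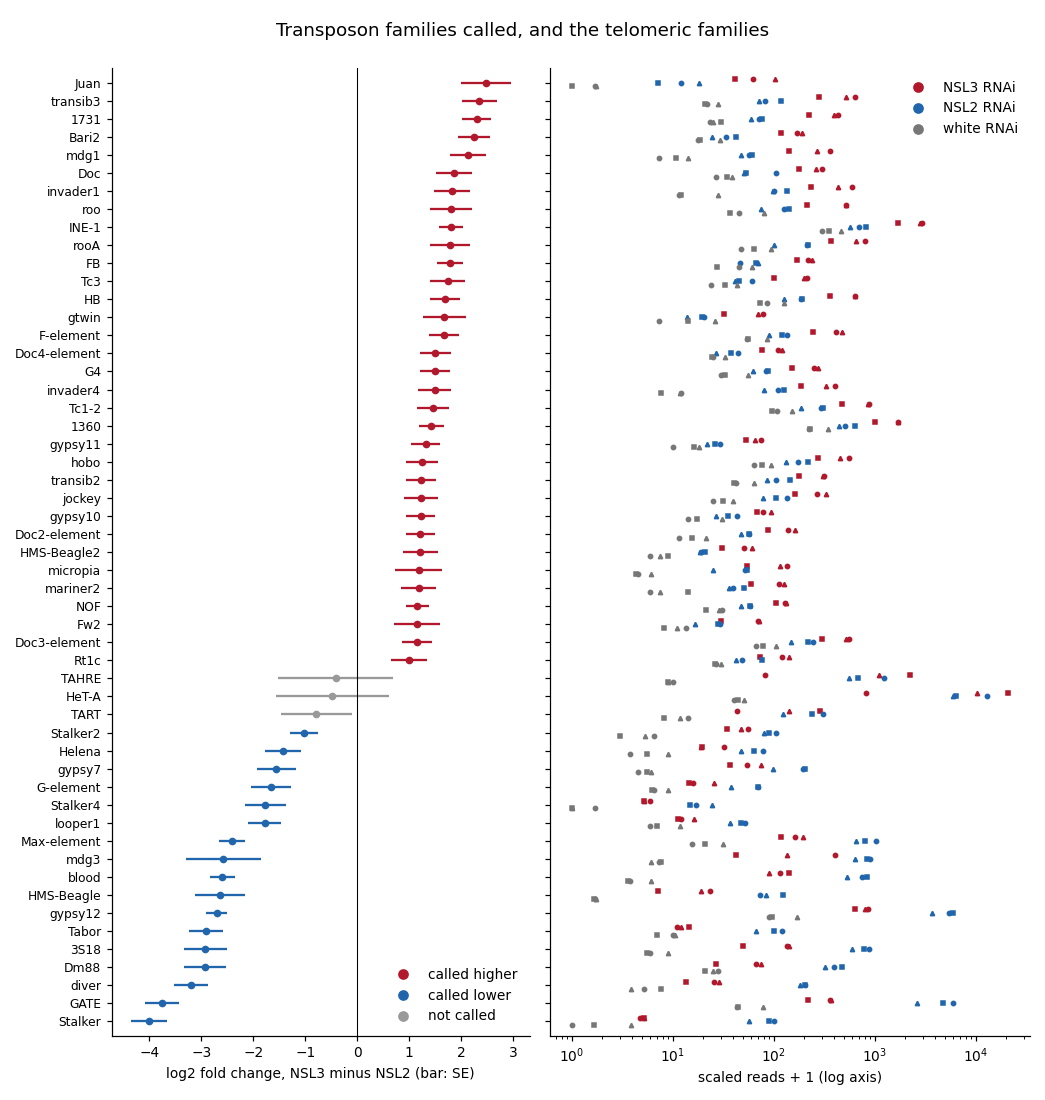
Left, log2 fold change (NSL3 RNAi minus NSL2 RNAi, bar for the SE) of the 50 transposon families called and of *HeT-A*, *TAHRE* and *TART*, and right, scaled reads + 1 (log axis) in each library with shapes for replicate numbers. The 33 families called higher include all classes, *GATE* and *Stalker* are lowest, and *HeT-A* and *TAHRE* have the widest spread between NSL3 RNAi libraries of the families plotted.

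Among 100 piRNA clusters tested, 24 were higher (24%) and 6 lower (6%), with a median of 0.31. Neither share exceeded that over all genes (26.7% and 9.22%). The higher count was 15 without NSL3 RNAi replicate 3, and scaling on nurse cell genes gave 54 higher and 0 lower (100% higher, against 80%), with 0 below zero at an unadjusted p under 0.05 by limma. Cluster reads come from long RNA that was not size selected, so they are not piRNAs. Whether they come from cluster transcripts or from transposon copies elsewhere was not tested. The cluster *flam*, which is active in follicle cells and was chosen after its values were seen, had 3153, 1753 and 2811 scaled reads in NSL3 RNAi, against 769, 951 and 717 in NSL2 RNAi (log2 fold change 1.63, SE 0.23, limma adjusted p = 0.000906). *42AB*, a germline cluster read on both strands, had 423, 719 and 798 scaled reads in NSL3 RNAi, against 1022, 1347 and 849 in NSL2 RNAi and a log2 fold change of -0.75 that did not pass the fold. The 2 groups of *42AB* did not overlap, and its value turned to 0.55 under scaling on nurse cell genes. Cluster22 had 450.4, 1615 and 974 scaled reads in NSL3 RNAi, against 1109, 885 and 653 in NSL2 RNAi with overlapping groups (log2 fold change 0.05, SE 0.44, limma adjusted p = 0.926). Cluster3 had 717, 596 and 910.3 scaled reads in NSL3 RNAi, against 217, 312 and 225 in NSL2 RNAi (log2 fold change 1.55, SE 0.21, limma adjusted p = 0.000808).

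Cluster95, cluster72 and cluster13 had the highest fold changes. Cluster95 had 618 reads over the NSL3 RNAi libraries, 0 over the NSL2 RNAi libraries and 126 over the *white* RNAi libraries, so it was at least 305-fold higher in NSL3 RNAi against a floor of 3 reads over the NSL2 RNAi group. Cluster72 had 383, 171 and 351 scaled reads in NSL3 RNAi, against 18.2, 34.02 and 23.5 in NSL2 RNAi (log2 fold change 3.49, SE 0.38, limma adjusted p = 0.000239). Cluster13 had 1405, 655 and 1227 scaled reads in NSL3 RNAi, against 74.98, 128 and 86.3 in NSL2 RNAi (log2 fold change 3.46, SE 0.33, limma adjusted p = 0.000117). The groups were separate for all 3. Among the clusters called, cluster60, cluster27 and cluster69 were lowest, with log2 fold changes of -2.05, -1.72 and -1.45, and these calls were lost under scaling on nurse cell genes. Cluster60, for example, had 38.6, 35.4 and 73.3 scaled reads in NSL3 RNAi, against 195, 203 and 190.4 in NSL2 RNAi.

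Clusters 94, 43 and 10, chosen after their values were seen, were near 0 reads in *white* RNAi and spread like the telomeric families. Cluster94 had 24.9, 468 and 238 scaled reads in NSL3 RNAi, against 260.4, 145 and 107 in NSL2 RNAi and 0 to 2.81 in *white* RNAi. Cluster43 had 2.49, 98.8 and 34.6 scaled reads in NSL3 RNAi, against 25.3, 20.1 and 15.7 in NSL2 RNAi. Cluster10 had 1.24, 41.6 and 16.6 scaled reads in NSL3 RNAi, against 57.8, 29.4 and 27.1 in NSL2 RNAi. Both were at 0 in *white* RNAi. In each of the 3 clusters NSL3 RNAi replicate 1 was lowest and the groups overlapped, with log2 fold changes of -0.17, 0.14 and -1.63. Without NSL3 RNAi replicate 1 cluster43 was called higher, and without NSL3 RNAi replicate 2 cluster10 was called lower.

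Eggshell genes, which follicle cells express in late egg chambers, were lower in NSL3 RNAi than in NSL2 RNAi and varied strongly between the NSL3 RNAi libraries. Of 9 chorion genes 8 were lower by limma (median -3.92), 2 by edgeR and 4 by DESeq2, and 0 were higher by any of the 3 (0 also at an unadjusted p under 0.05). The lower count was 6 without NSL3 RNAi replicate 2 and 4 without replicate 3. *Cp36*, an early chorion gene, had 200.3, 10844 and 9400.4 scaled reads in NSL3 RNAi, against 55538, 88349 and 52047 in NSL2 RNAi (log2 fold change -4.53, SE 1.40, limma adjusted p = 0.0224). *Cp38*, from the same gene cluster, had 199, 7592 and 10907 scaled reads in NSL3 RNAi, against 35266, 50385 and 32487 in NSL2 RNAi (log2 fold change -3.92, SE 1.37, limma adjusted p = 0.0349). In both, NSL3 RNAi replicate 1 stood far below replicates 2 and 3. *Cp15*, a late chorion gene, had 67047, 5477 and 174 scaled reads in NSL3 RNAi, against 79947, 157745 and 107497 in NSL2 RNAi (log2 fold change -4.79, SE 1.85, limma adjusted p = 0.0498). By edgeR and DESeq2 its log2 fold change was -2.25 and it was not called. *Cp18* had 36055, 10932 and 416 scaled reads in NSL3 RNAi, against 22103, 34305 and 19229 in NSL2 RNAi with overlapping groups (log2 fold change -2.16, SE 1.43, limma adjusted p = 0.21). For these 2 genes replicate 1 was the highest NSL3 RNAi library and replicate 3 the lowest, the opposite of *Cp36* and *Cp38*. The calls of *Cp15*, *Cp36*, *Cp38* and *Cp7Fa* were each lost without any 1 of the NSL2 RNAi libraries, and that of *Cp15* also without NSL3 RNAi replicate 2 or 3. *Cp16* and *Cp19* had log2 fold changes of -1.24 and -1.48, and *Cp16* turned to 0.067 under scaling on nurse cell genes. The call of *Cp16* was also lost by edgeR and without NSL3 RNAi replicate 2 or 3 or NSL2 RNAi replicate 1 or 2. *Cp16*, *Cp18*, *Cp19*, *Cp36* and *Cp38* were all plotted and named after their values were seen, and *Cp18* and *Cp36* also met the rule.

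**Figure D4:**
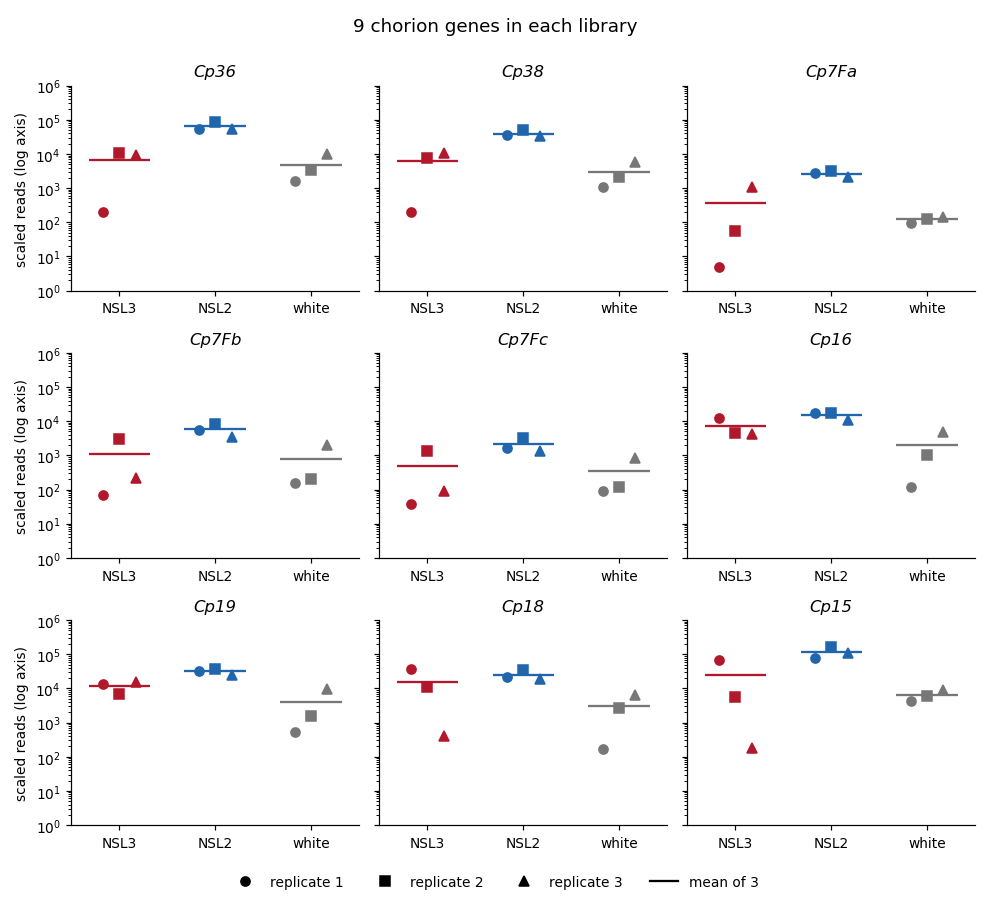
Scaled reads (log axis) of the 9 chorion genes in each library of NSL3 RNAi (red), NSL2 RNAi (blue) and *white* RNAi (grey), with a line at the mean of 3 and a shape for each replicate number. *Cp36* and *Cp38* are lowest in NSL3 RNAi replicate 1, whereas *Cp15* and *Cp18* are lowest in NSL3 RNAi replicate 3.

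Of 16 vitelline membrane and early eggshell genes 9 were lower and 0 higher by limma (0 at an unadjusted p under 0.05, by edgeR and by DESeq2), with 15 lower without NSL3 RNAi replicate 2. Their sum was 10263, 52982 and 31799.6 scaled reads in NSL3 RNAi, against 100816, 152188 and 74595 in NSL2 RNAi. *yellow-g2*, which takes part in crosslinking the vitelline membrane, had 12.4, 2678 and 48.4 scaled reads in NSL3 RNAi, against 7554, 11724 and 7004 in NSL2 RNAi (log2 fold change -6.14, SE 1.71, limma adjusted p = 0.0147). *yellow-g* had 106, 1542 and 85.8 scaled reads in NSL3 RNAi, against 4623, 6944 and 4425 in NSL2 RNAi (log2 fold change -4.43, SE 1.00, limma adjusted p = 0.00654). *Fcp3C*, a follicle cell protein, had 14.9, 199.7 and 84.4 scaled reads in NSL3 RNAi, against 1599, 1802 and 799 in NSL2 RNAi (log2 fold change -4.35, SE 0.85, limma adjusted p = 0.00374). NSL3 RNAi replicate 2 was the highest of its group for all 3 genes. The call of *yellow-g2* was lost without NSL3 RNAi replicate 3 and by edgeR and DESeq2 (log2 fold change -3.26 in both). *dec-1*, a long eggshell protein gene, spanned 574 to 16673 in NSL3 RNAi ovaries and 19284 to 52971 in NSL2 RNAi ovaries, and it missed the threshold (log2 fold change -2.82, SE 1.16, limma adjusted p = 0.0614). The *white* RNAi libraries were low in eggshell genes as well, with 1569.7 to 9686 for *Cp36* and 158 to 1824 for *yellow-g2*. The mean chorion sum was 73854 in NSL3 RNAi, 301871 in NSL2 RNAi and 24675 in *white* RNAi. For the vitelline membrane and early eggshell list the means were 31682, 109199 and 30853 in the same order. In both sums NSL2 RNAi lay above both other groups, and the NSL3 RNAi mean was not below that of *white* RNAi. Yolk protein genes gave 1 lower of 3 and 0 higher (0 at an unadjusted p under 0.05, by edgeR and by DESeq2), with mean sums of 52404 in NSL3 RNAi, 90169 in NSL2 RNAi and 11145 in *white* RNAi. *Yp2* had 13763, 21061 and 18113 scaled reads in NSL3 RNAi, against 34515, 59176 and 26695 in NSL2 RNAi (log2 fold change -1.13, SE 0.30, limma adjusted p = 0.013), a call lost under ribosomal protein scaling and without NSL3 RNAi replicate 1 or NSL2 RNAi replicate 2. *Yp1* overlapped between the groups (log2 fold change -0.57, SE 0.31, limma adjusted p = 0.137).

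Genes of the ovarian soma were higher in NSL3 RNAi, 13 of 23 against 1 lower (median 1.99), beside 26.7% higher and 9.22% lower over all genes. Members with few reads in NSL2 RNAi, such as *cas*, reached the minimum mean only through NSL3 RNAi. The share therefore partly follows from that minimum. Their sum was 42314, 30432 and 42561 scaled reads in NSL3 RNAi, against 17411, 18702 and 14614 in NSL2 RNAi. *ptc*, the Hedgehog receptor, had 786, 544 and 889.5 scaled reads in NSL3 RNAi, against 47.6, 44.1 and 24.2 in NSL2 RNAi (log2 fold change 4.25, SE 0.31, limma adjusted p = 3.45e-05). *cas*, a zinc finger factor of early follicle cells, had 279.9, 149 and 199 scaled reads in NSL3 RNAi, against 9.12, 6.19 and 6.42 in NSL2 RNAi (log2 fold change 4.64, SE 0.33, limma adjusted p = 2.83e-05). *cv-2*, a secreted BMP-binding protein, had 1957, 1177 and 1782 scaled reads in NSL3 RNAi, against 53.7, 64.2 and 38.5 in NSL2 RNAi (log2 fold change 4.94, SE 0.26, limma adjusted p = 9.98e-06), and none of these genes overlapped. *ttk*, a repressor of late follicle cells, was level (log2 fold change -0.04, SE 0.11, limma adjusted p = 0.741). The 1 lower member was *Cad74A*, a cadherin of columnar follicle cells named after its values were seen, with 52.3, 826 and 527 scaled reads in NSL3 RNAi, against 3252, 3647 and 1919 in NSL2 RNAi. The 8 basement membrane genes (collagen IV, laminins, perlecan, nidogen and SPARC) were all higher. They summed to 197264, 103886 and 172084 scaled reads in NSL3 RNAi, against 14013, 17752 and 10818 in NSL2 RNAi. *BM-40-SPARC* had 6830.5, 3676 and 5942 scaled reads in NSL3 RNAi, against 188, 241 and 229.6 in NSL2 RNAi (log2 fold change 4.59, SE 0.23, limma adjusted p = 9.54e-06). *trol*, which encodes perlecan, had 74989.6, 39723 and 66486 scaled reads in NSL3 RNAi, against 4318, 4453 and 2799 in NSL2 RNAi (log2 fold change 3.95, SE 0.28, limma adjusted p = 2.85e-05).

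Markers of cell types outside the egg chambers made up much more of the NSL3 RNAi libraries. The muscle list took 3.53%, 1.86% and 3.09% of the reads in NSL3 RNAi ovaries, against 0.0744%, 0.0723% and 0.0611% in NSL2 RNAi ovaries. Of its 25 genes 20 were tested, and 19 of those were higher (median 6.49), against 26.7% over all genes. *TpnC73F*, a troponin C, had 7176, 3946 and 7089 scaled reads in NSL3 RNAi, against 32.4, 32.5 and 32.8 in NSL2 RNAi (log2 fold change 7.45, SE 0.24, limma adjusted p = 6.05e-06). *Unc-89*, a giant sarcomere protein, had 13681, 6453 and 11296 scaled reads in NSL3 RNAi, against 82.1, 75.8 and 55.6 in NSL2 RNAi (log2 fold change 7.13, SE 0.29, limma adjusted p = 7.92e-06). *up*, which encodes troponin T, had 17814, 8919.6 and 17808 scaled reads in NSL3 RNAi, against 92.2, 135 and 91.3 in NSL2 RNAi (log2 fold change 7.07, SE 0.29, limma adjusted p = 7.92e-06). For none of the 3 did the groups overlap, and the *white* RNAi libraries were as low as NSL2 RNAi, with 63.2 to 75.97 for *up*. *Tm1*, a tropomyosin with isoforms outside muscle, was the member not called (log2 fold change 0.90, SE 0.16, limma adjusted p = 0.0028). In *Drosophila* each ovariole and the ovary as a whole are wrapped in muscle sheaths.

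Hemocyte (blood cell) genes gave 13 higher of 15 and 0 lower (0 lower at an unadjusted p under 0.05 by limma, 0 by edgeR and by DESeq2). Their median was 7.48, and they summed to 207228, 99535 and 167649 scaled reads in NSL3 RNAi, against 5674, 5651 and 5744 in NSL2 RNAi. *Hml*, a clotting protein made by hemocytes, had 49351, 20587 and 37653 scaled reads in NSL3 RNAi, against 42.6, 40.98 and 52.8 in NSL2 RNAi (log2 fold change 9.51, SE 0.30, limma adjusted p = 6.05e-06). *Pxn*, a peroxidase of the extracellular matrix, had 50647, 23119 and 40067 scaled reads in NSL3 RNAi, against 66.9, 77.3 and 59.9 in NSL2 RNAi (log2 fold change 9.04, SE 0.27, limma adjusted p = 6.05e-06). *Ppn*, a matrix proteoglycan, had 79503, 38556 and 62610.0 scaled reads in NSL3 RNAi, against 180.3, 219 and 175 in NSL2 RNAi (log2 fold change 8.24, SE 0.25, limma adjusted p = 6.05e-06), and NSL3 RNAi replicate 2 was the lowest of its group for each of the 3. *crq*, a scavenger receptor, did not pass the fold (log2 fold change 0.81, SE 0.14, limma adjusted p = 0.00221). Fat body genes gave 8 higher of 12, with the iron carrier *Tsf1* at 3.99, the secreted *fat-spondin* at 3.85 and *CG15828* at 2.82. Neuronal genes gave 7 higher of 8, with *nrv3*, *n-syb* and *Rbp9* at 5.28, 5.21 and 5.16, and tracheal and gut genes 10 of 11, with *verm*, *Gasp* and *Jon65Aiii* at 5.67, 5.33 and 5.35. The lists hold 16 hemocyte, 15 fat body, 13 neuronal and 12 tracheal and gut genes, and the others missed the minimum mean. As for muscle, a gene with few reads in NSL2 RNAi reached that minimum only through NSL3 RNAi. Such shares of tested genes therefore partly follow from the minimum. Relative to the nurse cell sum the libraries differed more. Muscle genes stood at 8374, 1485 and 4635 in NSL3 RNAi, against 37.7, 40.2 and 30.8 in NSL2 RNAi. The summed muscle level of the NSL3 RNAi libraries, 619975, 292391 and 533741 scaled reads, ran opposite to their nurse cell sum, and its part in the other differences reported here was not tested.

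**Figure D5:**
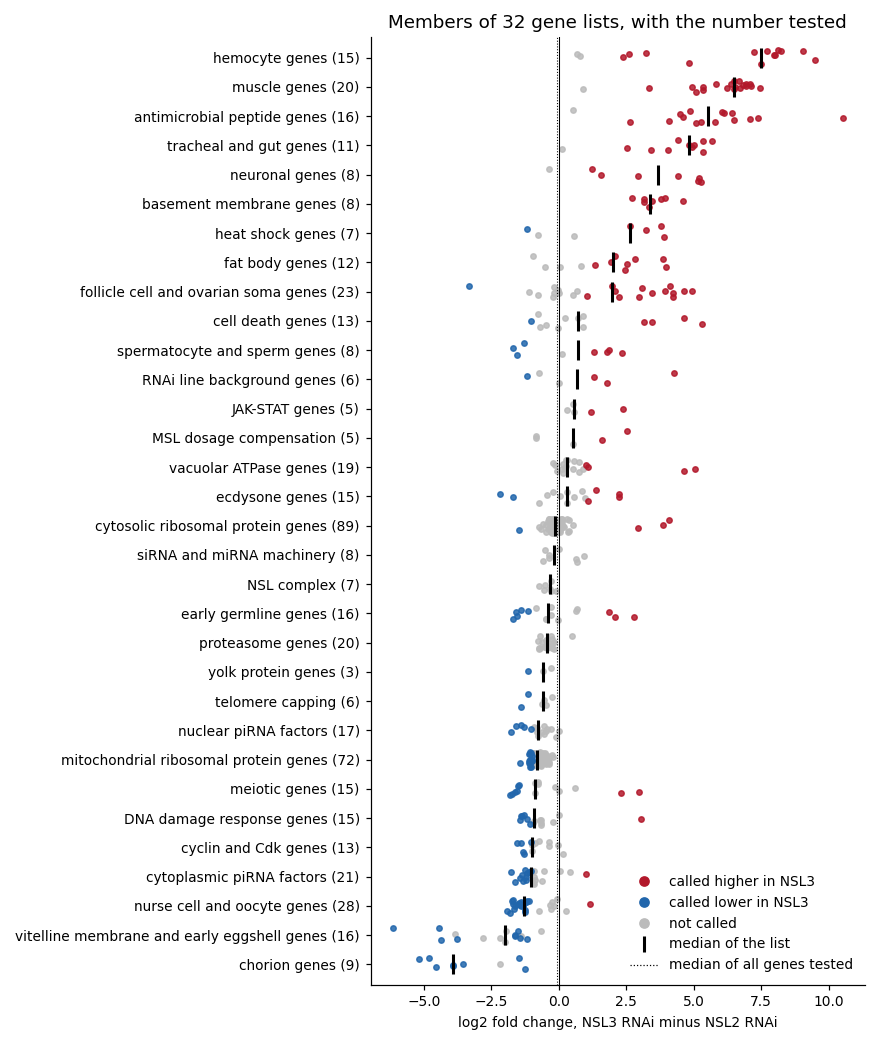
Log2 fold change (NSL3 RNAi minus NSL2 RNAi) of each tested member of 32 gene lists, coloured by call, with a bar at the median of each list and a dotted line at the median of all genes. Hemocyte and muscle lists have medians above 6, and nurse cell, piRNA, vitelline membrane and chorion lists lie below 0.

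Of 16 genes for antimicrobial peptides 15 were higher (median 5.53), against 26.7% over all genes. Members with few reads in NSL2 RNAi, such as *Mtk* and *Dpt*, reached the minimum mean only through NSL3 RNAi. The share therefore partly follows from that minimum. They summed to 26211, 25928 and 15602 scaled reads in NSL3 RNAi, against 253, 387 and 133 in NSL2 RNAi, an 87.7-fold ratio of the group means. *Drs*, the antifungal peptide Drosomycin, had 19327, 9221 and 9230.3 scaled reads in NSL3 RNAi, against 10.1, 3.87 and 8.56 in NSL2 RNAi (log2 fold change 10.52, SE 0.40, limma adjusted p = 7.92e-06), the highest fold change of any gene with at least 100 scaled reads in each NSL3 RNAi library. *Mtk*, another antifungal peptide, had 305, 151 and 346 scaled reads in NSL3 RNAi, against 0, 2.32 and 0 in NSL2 RNAi (log2 fold change 7.40, SE 0.59, limma adjusted p = 4.91e-05). *Dpt*, the antibacterial peptide Diptericin, had 177, 2766 and 101 scaled reads in NSL3 RNAi, against 5.07, 2.32 and 0 in NSL2 RNAi (log2 fold change 7.08, SE 1.25, limma adjusted p = 0.00255). *Dpt* was thus highest in NSL3 RNAi replicate 2, unlike *Drs* and *Mtk*, and so was its neighbour *DptB* with 226, 3396 and 224 scaled reads in NSL3 RNAi ovaries (*Dpt* and *DptB* were compared after their values were seen, and neither was called by DESeq2). *IM2* was the member not called (log2 fold change 0.53, SE 0.34, limma adjusted p = 0.192).

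Of 7 heat shock genes 4 were higher and 1 lower, against 26.7% and 9.22% over all genes. The sum over the list was lower in each NSL3 RNAi library, with 12053, 21997 and 17917 scaled reads in NSL3 RNAi, against 24473, 24919 and 27331 in NSL2 RNAi. *Hsp68*, an inducible Hsp70-type chaperone, had 2184, 961 and 4417 scaled reads in NSL3 RNAi, against 184, 91.2 and 199.7 in NSL2 RNAi (log2 fold change 3.80, SE 0.55, limma adjusted p = 0.00102), and *Hsp67Ba* and *Hsp67Bc* had log2 fold changes of 3.89 and 3.23. The lower one was *Hsp26*, a small chaperone named after its values were seen, with 5478, 13951 and 7848 scaled reads in NSL3 RNAi, against 18805, 18669 and 19895 in NSL2 RNAi, a call lost without NSL3 RNAi replicate 1. Of 13 cell death genes 4 were higher and 1 lower, close to the shares over all genes (26.7% and 9.22%). *skl* and *rpr*, which counteract the caspase inhibitor encoded by *th*, had log2 fold changes of 5.32 and 4.64. *rpr* had 316, 147 and 304 scaled reads in NSL3 RNAi, against 11.1, 9.28 and 6.42 in NSL2 RNAi. *egr*, the TNF ligand, had 2289, 997 and 1959 scaled reads in NSL3 RNAi, against 141, 191 and 128 in NSL2 RNAi (log2 fold change 3.44, SE 0.32, limma adjusted p = 0.000109). *th* itself did not pass the threshold (log2 fold change 0.25, SE 0.10, limma adjusted p = 0.0599). The lower member was the caspase gene *Dcp-1*, named after its values were seen, with 295, 614 and 448 scaled reads in NSL3 RNAi, against 834, 884 and 918 in NSL2 RNAi. It was called by limma and not by edgeR or DESeq2, and the limma call was lost without NSL3 RNAi replicate 1 and under ribosomal protein scaling.

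Signalling lists had a few calls each. Of 15 ecdysone genes 4 were higher and 2 lower, close to the 26.7% and 9.22% of all genes. *Eip75B*, a nuclear receptor induced by the hormone, had 2830.5, 2495 and 3158 scaled reads in NSL3 RNAi, against 790.3, 603 and 447 in NSL2 RNAi (log2 fold change 2.23, SE 0.21, limma adjusted p = 0.000114). *br*, a zinc finger factor of the same response, had a log2 fold change of 2.22. *spo*, an enzyme of ecdysone synthesis, had 84.6, 63.4 and 74.7 scaled reads in NSL3 RNAi, against 253, 598 and 259 in NSL2 RNAi (log2 fold change -2.19, SE 0.35, limma adjusted p = 0.00167). The groups were separate in all 3. *Socs36E*, a target and inhibitor of JAK-STAT signalling, had 973, 621 and 1112 scaled reads in NSL3 RNAi, against 178, 186 and 136 in NSL2 RNAi (log2 fold change 2.40, SE 0.25, limma adjusted p = 0.000173). *hop*, the kinase of that pathway, had 4153, 3055 and 3869 scaled reads in NSL3 RNAi, against 2330.4, 1294 and 1346 in NSL2 RNAi (log2 fold change 1.20, SE 0.24, limma adjusted p = 0.0042). *msl-2* and the non-coding RNA *roX1*, both of the male dosage compensation complex, were higher with log2 fold changes of 1.59 and 2.54, while *msl-1* was at -0.82. *msl-2* had 357, 204.9 and 306 scaled reads in NSL3 RNAi, against 99.3, 93.6 and 86.3 in NSL2 RNAi. *roX1* had 98.3, 45.8 and 81.6 scaled reads in NSL3 RNAi, against 9.12, 19.3 and 8.56 in NSL2 RNAi, without overlap. Of 26 genes of spermatocytes and sperm only 8 reached the minimum, 4 of them higher (*bol* 2.33, *fzo* 1.86 and *mia* 1.78 among them) and 3 lower, and the list median of 0.72 was -0.05 under total read scaling.

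Lists of general cell functions differed from each other. Of 89 cytosolic ribosomal protein genes 3 were higher and 1 lower, against 26.7% and 9.22% over all genes (median -0.14, 1.16 under scaling on nurse cell genes). The 3 were the paralogues *RpL22-like*, *RpL37b* and *RpS19b*. *RpS19b* had 220.2, 54.1 and 195 scaled reads in NSL3 RNAi, against 13.2, 20.9 and 16.4 in NSL2 RNAi (log2 fold change 2.93, SE 0.54, limma adjusted p = 0.00307). *RpL22-like* had 319, 12.5 and 139.7 scaled reads in NSL3 RNAi, against 3.04, 4.64 and 4.28 in NSL2 RNAi (log2 fold change 4.10, SE 1.06, limma adjusted p = 0.0108). The lower one was *RpS5b*, named after its values were seen, with 3928, 9207 and 6106 scaled reads in NSL3 RNAi, against 15360.1, 17341 and 17286 in NSL2 RNAi (log2 fold change -1.46), whereas *RpS5a* was at 0.51 and not called. Paralogues share sequence, and reads may have been split between them. Mitochondrial ribosomal protein genes were lower in 16 of 72, against 9.22% over all genes, and higher in 0 (0 at an unadjusted p under 0.05, by edgeR and by DESeq2). All 72 had a negative value (median -0.81, 0.49 under scaling on nurse cell genes). *mRpS18A* had 305, 635 and 433 scaled reads in NSL3 RNAi, against 1148, 1198 and 1165 in NSL2 RNAi (log2 fold change -1.42, SE 0.25, limma adjusted p = 0.00247). The lower count was 1 without NSL3 RNAi replicate 1 and 28 without replicate 2. Proteasome genes gave 0 calls in 20 by limma, edgeR and DESeq2, with 14 lower and 0 higher at an unadjusted p under 0.05 by limma and a median of -0.44 (0.89 under scaling on nurse cell genes). Of 19 vacuolar ATPase genes, which acidify organelles, 4 were higher and 0 lower by limma, edgeR and DESeq2 (0 lower at an unadjusted p under 0.05), against 26.7% higher over all genes, and 2 were higher under TMM or total read scaling. *Vha68-1* had 1474, 712 and 1436 scaled reads in NSL3 RNAi, against 38.5, 47.2 and 49.9 in NSL2 RNAi (log2 fold change 4.64, SE 0.30, limma adjusted p = 2.01e-05).

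The last genes described are those tied to the fly stocks and those with hardly any reads in 1 group. Of the genes tied to markers and landing sites of transgenic stocks, *w* had 1115, 1200.1 and 1129 scaled reads in NSL3 RNAi, against 1829.8, 1892 and 2031 in NSL2 RNAi and 140.1 to 226 in *white* RNAi (log2 fold change -0.74, SE 0.10, limma adjusted p = 0.000668). *Msp-300*, a nesprin of muscle that lies at the attP40 site, had 79970.0, 38668 and 64639.5 scaled reads in NSL3 RNAi, against 3885, 3048 and 2317 in NSL2 RNAi (log2 fold change 4.28, SE 0.30, limma adjusted p = 2.58e-05). *tsh* and *tio*, a pair of zinc finger genes that act in patterning, had log2 fold changes of 1.79 and 1.33. *v*, an eye pigment gene, had 4.98, 9.36 and 12.5 scaled reads in NSL3 RNAi, against 18.2, 16.2 and 27.8 in NSL2 RNAi (log2 fold change -1.17, SE 0.45, limma adjusted p = 0.0472). The calls of *v* and *tio* were lost without single libraries, and *y*, with at most 18.2 scaled reads in these 6 libraries, was not tested. By the fixed limits 116 genes had at most 3 reads over the NSL2 RNAi libraries and at least 10 scaled reads in each NSL3 RNAi library, against 3 genes the other way round.

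*Cyp4p2*, a cytochrome P450 gene, had 1 read over the NSL3 RNAi libraries, 4131 over the NSL2 RNAi libraries and 1 over the *white* RNAi libraries, a ratio of 2791 in favour of NSL2 RNAi (95% counting interval 501 to 110272). *CG32581* had 0 reads over the NSL3 RNAi libraries, 781 over the NSL2 RNAi libraries and 1058 over the *white* RNAi libraries, and was at least 176-fold lower in NSL3 RNAi. For *Cyp4p2* NSL2 RNAi thus differed from both other groups, and for *CG32581* NSL3 RNAi did. *Gr64a*, a sugar taste receptor gene, had 0 reads over the NSL3 RNAi libraries and 51 over the NSL2 RNAi libraries (at least 11.5-fold lower in NSL3 RNAi). *sa*, a testis TAF gene, had 2 reads in NSL3 RNAi and 55 in NSL2 RNAi (ratio 18.6 in favour of NSL2 RNAi, interval 4.91 to 157). In the other direction *CG43112* had 2295 reads in NSL3 RNAi and 2 in NSL2 RNAi (ratio 1698, interval 469.6 to 14032). *CG43236* had 856 reads in NSL3 RNAi and 3 in NSL2 RNAi (ratio 422, interval 144 to 2052). *CG42711* had 1393 reads in NSL3 RNAi and 3 in NSL2 RNAi (ratio 687, interval 235 to 3336). *CG13318* had 1117 in NSL3 RNAi and 2 in NSL2 RNAi (ratio 827, interval 228 to 6834). These intervals cover counting error only.

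Among genes with at least 100 scaled reads in each NSL3 RNAi library, the highest fold changes after *Drs* were those of *stan*, *Hml*, *NtR*, *CG43112* and *CG42807*. *stan*, a cadherin of planar cell polarity, had 11795, 6056 and 10994 scaled reads in NSL3 RNAi, against 5.07, 5.41 and 8.56 in NSL2 RNAi (log2 fold change 10.33, SE 0.30, limma adjusted p = 6.05e-06). *NtR*, related to neurotransmitter receptors, had 4800.0, 1980.0 and 3248 scaled reads in NSL3 RNAi, against 2.03, 3.09 and 6.42 in NSL2 RNAi (log2 fold change 9.44, SE 0.43, limma adjusted p = 8.17e-06). *CG42807* had 3757, 1012 and 3337 scaled reads in NSL3 RNAi, against 3.04, 3.09 and 2.85 in NSL2 RNAi (log2 fold change 9.19, SE 0.48, limma adjusted p = 9.72e-06). All 3 were at single digits in each NSL2 RNAi library. The lowest fold changes among genes with at least 100 scaled reads in each NSL2 RNAi library, after *Cyp4p2* and *CG32581*, were those of *CG15571*, *yellow-g2*, *Dscam4* and *CG1077*. *CG15571* had 0, 7.28 and 434 scaled reads in NSL3 RNAi, against 1287, 1252 and 879 in NSL2 RNAi (log2 fold change -6.20, SE 1.91, limma adjusted p = 0.0219). NSL3 RNAi replicate 3 was far above the other NSL3 RNAi libraries. The call of *CG15571* was lost without any 1 of the NSL2 RNAi libraries and by edgeR and DESeq2 (log2 fold changes -2.98 and -2.95). *Dscam4*, a cell adhesion gene, had 8.71, 2.08 and 9.68 scaled reads in NSL3 RNAi, against 367, 356 and 314 in NSL2 RNAi and 105 to 113 in *white* RNAi (log2 fold change -5.66, SE 0.48, limma adjusted p = 7.08e-05). *CG1077* had 7.46, 176 and 44.3 scaled reads in NSL3 RNAi, against 1748, 2590.3 and 1659 in NSL2 RNAi (log2 fold change -5.59, SE 0.96, limma adjusted p = 0.00225), with NSL3 RNAi replicate 2 the highest of its group.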

How the data were processed

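Ovarian RNA was sequenced by the authors after RiboZero depletion, ribosomal reads were removed with bowtie2, and the rest was aligned with STAR in piPipes. Reads were counted with featureCounts or eXpress. The genome build is dm3 and DESeq2 is named in the submitters' processing notes, but the strand used in counting is not given in the sources used here. Per knockdown the authors deposited 1 table of signal values, which are reads over a size factor of each library, with the *white* RNAi libraries in it. The methods state that ERCC spike-ins, RNAs added at known amounts, set the size factors of the ovary libraries. Whether they set those of the deposited values was not checked, and those factors were not kept here. Log2 fold changes, their standard errors and p-values that the authors deposited come from their own comparisons with *white* RNAi and were not used. Dividing each column by its smallest step gave whole reads for 100% of values (within 1e-06 reads), and 0 library columns went unused.

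The 6 libraries were joined on feature names and scaled together by the median of ratios over annotated genes. Insertions were summed over 122 families, and 15215 of 15340 gene names matched the annotation. In R 4.3.3 a limma 3.58.1 fit (trend option, no block) was made on log2(scaled reads + 1) over all features with a mean of at least 10, and p-values were adjusted over all features (Benjamini-Hochberg). They measure the spread between libraries. edgeR 4.0.16 and DESeq2 1.42.0 on the whole reads were alternatives, beside 5 other scalings, a pseudocount of 0.5 or 5, a minimum mean of 50 or none, other thresholds, a replicate block, leaving out each library, and single insertions. On simulated data limma recovered 95 of 100 genes changed 3-fold, 100 of 100 changed 8-fold, and called 5 of 7817 unchanged genes. The changed genes were well covered, as many raised as lowered, and each gene had the same spread in both groups. In the real data higher calls outnumbered lower ones and the NSL3 RNAi libraries spread more, so these rates may not hold for them. Fold changes on this scale understate low genes. They are differences of mean logs, so they can lie far from the ratio of group means where NSL3 RNAi libraries differ widely. The ratio of mean chorion sums, for example, was 0.245, against a median log2 fold change of -3.92. For *HeT-A* the value was negative although the NSL3 RNAi mean of 10800 lay above the NSL2 RNAi mean of 8423.

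The 32 gene and 7 transposon lists and the rule for named features were chosen with earlier results of these data known. The rule takes all genes of the NSL complex and of the fly stocks, up to 3 called members per list with the largest fold change and the most abundant member not called, the 6 genes with the highest and lowest fold change, genes with at most 3 reads in 1 group, the telomeric and study-named families, the 6 highest and lowest families, and the 3 highest and lowest clusters with clusters 3, 22 and 42AB. Columns of replicates 2 and 3 carry the group name and a number, and only replicate 1 has a sample record of its own. Ratios on few reads carry a 95% interval for counting error or a floor of 3 reads over the group. Tables and plots were made in Python 3.11.15 (scipy 1.17.1, pandas 2.3.3, numpy 2.4.6).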

Additional observations from a re-analysis of the deposited data

How the results depend on the processing

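The number of lower genes changed with the scaling, with the library left out and with the fold minimum. A scale from spike-ins, which the study names, was not among those run. Relative to nurse cell and oocyte genes 5457 genes were higher and 56 lower, with 61 and 8 families and 54 and 0 clusters. Total read scaling gave 1305 lower genes and ribosomal protein scaling 548. At an adjusted p of 0.05 with no fold minimum 3063 genes were higher and 3186 lower, and at 0.01 the higher clusters numbered 14. Tested as single insertions, 52 families had an insertion called higher and 34 had one called lower. With each library left out in turn, 2164 to 2521 genes were higher and 491 to 1309 lower, 26 to 44 families were higher and 16 to 18 lower, and 15 to 30 clusters were higher and 4 to 7 lower. Lower genes numbered 1309 without NSL3 RNAi replicate 2 and 491 without NSL3 RNAi replicate 1, and higher clusters numbered 15 without NSL3 RNAi replicate 3. Relative to nurse cell genes, 39 of the 182 named features tested turned from a negative to a positive log2 fold change and 0 the other way, and 16 of them were called under at least 1 of the 2 scalings: *AGO3* (0.12), *Cp16* (0.067), *Dcp-1* (0.28), *Hsp26* (0.12), *MBD-R2* (1.20), *Rcd5* (1.02), *Rpn2* (1.04), *Yp2* (0.18), *cav* (0.18), *mRpL10* (0.21), *mRpL21* (0.21), *pum* (1.24), *ttk* (1.26), *v* (0.029), *vas* (0.10) and *wah* (1.03). That scaling moved the median over genes by 1.35, so the single direction of these turns follows from the scale and is not a separate result. The cause of these shifts beyond the choice of scale was not tested. Same-numbered libraries of the 2 knockdowns did not deviate together (correlations -0.11, -0.22 and -0.15), and with a replicate block 2325 genes were higher and 798 lower, 29 families higher and 17 lower, and 19 clusters higher and 5 lower. Depth limits the few-read genes most, and the shallowest library is NSL3 RNAi replicate 3 with 12482452 reads.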
